A study of Mus musculus with 6 samples.

Results

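The 10 genes described here, S100a8, S100a9, Hp, Lcn2, Ngp, Camp, Ltf, Retnlg, Cxcr2 and Csf3r, encode granule, cytosolic and surface proteins of neutrophils. They were picked by symbol, and all 10 are among the 17744 genes of the authors' full table. They were chosen because earlier results of these data had shown a neutrophil list higher in the ultrasound libraries, and most of all in ultrasound 1. Their levels are therefore given as a description, without a test, and ultrasound 1 is read apart from ultrasound 2 and ultrasound 3. The libraries are bulk RNA-seq of mouse spleen cells sorted as CD45+ CD3+ CD8a+. They comprise 3 controls, with genotype wt and treatment control, and 3 libraries labelled fus irradiation, here called ultrasound libraries. Focused ultrasound concentrates sound waves on a tissue, and the series title speaks of activating the immune function of the spleen. Sorted cells passed a purity check by flow cytometry before sequencing. The genotype field of the ultrasound samples repeats the treatment, and strain, age, dose, interval after treatment, batch and any pooling of animals are not given in the sources used here. Nothing in the labels says that the libraries of a group came from separate animals, so p-values measure only the spread between these libraries.

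Neutrophils are short-lived phagocytes that form in the bone marrow and fill their granules in sequence. Primary granule enzymes such as myeloperoxidase and elastase are made first, by promyelocytes. Secondary granule proteins such as lactoferrin and cathelicidin follow, then gelatinase granule contents, and the receptors for chemokines and growth factors rise as the cells mature. The spleen holds neutrophils in its red pulp.

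The libraries held 35024080 to 38113103 whole reads, recovered from the deposited values. The mitochondrial share of reads was 2.05% to 2.70% over the controls, 2.19% in ultrasound 1, 0.954% in ultrasound 2 and 0.937% in ultrasound 3. The 9 listed T cell markers summed to 2833 to 2977 FPKM (fragments scaled to gene length and library size) in the controls, against 2457, 3004 and 2736 in ultrasound 1, 2 and 3. T cell transcripts were thus abundant in every library, Cd8a among them at 251 to 314 FPKM. Trac was not analysed here.

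Members lie on 7 chromosomes of GRCm38.p6 (RefSeq), the build that the submitters' processing notes name as mm10. S100a8 (chromosome 3, 90669071 to 90670034) and S100a9 (90692630 to 90695721) are neighbours with 22595 bases between them. Camp (109847377 to 109849456), Ngp (110419808 to 110423012) and Ltf (111019292 to 111042766) lie on chromosome 9, with 570 kb between Camp and Ngp and 596 kb between Ngp and Ltf. Cxcr2 is on chromosome 1 (74153994 to 74161246), Lcn2 on 2 (32384637 to 32387739), Csf3r on 4 (126023441 to 126044975), Hp on 8 (109575128 to 109579172) and Retnlg on 16 (48872608 to 48874498).

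The RefSeq promoter table holds an entry for 9 members, all but Hp. Because the members were high together, the 250 bases before each start were searched on both strands for TTNNGNAA, a form of the C/EBP motif, and GAGGAA, a core of the PU.1 motif. C/EBP factors and PU.1 are transcription factors of granulocyte development. TTNNGNAA matched in 6 of 9 (Lcn2, Ltf, Ngp, Retnlg, S100a8 and S100a9), against 36.8% of 32851 promoters. GAGGAA matched in 5 of 9 (Csf3r, Cxcr2, Lcn2, Ltf and S100a8), against 23.3%. No match of one motif overlapped a match of the other in these promoters. A match is a run of letters and was not tied to binding here. Of the promoters, 4 are shown to set the S100 pair, whose ratio differed between libraries, beside a granule gene and a receptor. Each runs 5′ to 3′ on the gene's strand and stops before the first base that a GENCODE M21 exon of the gene covers. Capitals mark the matches. S100a8 is chr3:90668821-90668977, plus strand. S100a9 is chr3:90695722-90695971, minus strand. Ngp is chr9:110419558-110419746, plus strand, and its last match (TTGGGCAA, from 11 to 4 bases before the start) lies past the stretch shown, as does the second GAGGAA match of S100a8. Cxcr2 is chr1:74153744-74153988, plus strand.
S100a8: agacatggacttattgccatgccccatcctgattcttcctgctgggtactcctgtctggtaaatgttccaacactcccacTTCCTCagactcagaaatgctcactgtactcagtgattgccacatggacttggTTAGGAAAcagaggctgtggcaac
S100a9: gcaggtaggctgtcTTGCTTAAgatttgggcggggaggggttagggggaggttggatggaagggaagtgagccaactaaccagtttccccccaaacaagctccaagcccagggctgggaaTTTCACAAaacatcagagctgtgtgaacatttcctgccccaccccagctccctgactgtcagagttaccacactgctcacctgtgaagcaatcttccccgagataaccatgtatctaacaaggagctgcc
Ngp: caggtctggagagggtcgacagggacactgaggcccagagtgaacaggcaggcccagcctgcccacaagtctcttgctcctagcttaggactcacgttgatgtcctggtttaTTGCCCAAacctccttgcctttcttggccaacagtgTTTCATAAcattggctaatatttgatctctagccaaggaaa
Cxcr2: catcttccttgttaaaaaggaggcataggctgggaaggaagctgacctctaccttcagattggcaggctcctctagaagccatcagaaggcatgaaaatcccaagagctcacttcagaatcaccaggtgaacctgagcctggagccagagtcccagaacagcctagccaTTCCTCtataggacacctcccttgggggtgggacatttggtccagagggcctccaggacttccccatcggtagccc

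Transcripts of all 10 genes were present in every library, controls included, with at least 104 reads per gene and library. Their FPKM values summed to 613, 203 and 207 in control 1, 2 and 3. The sums were 2528 in ultrasound 1, 727 in ultrasound 2 and 808 in ultrasound 3. Ultrasound 1 thus lay at 7.41 times the control mean, and ultrasound 2 and ultrasound 3 at 2.13 and 2.37 times. In bulk libraries, more cells of a type and more RNA per cell cannot be told apart. For 9 members, all but S100a8, the lowest ultrasound library exceeded the highest control. Of all 10655 tested genes 25.9% were separated that way and 8.96% in the opposite one. In the limma fit across all genes 3 members (Hp, Cxcr2 and Csf3r) had an adjusted p under 0.05 and were higher, where 8.11% of tested genes were called in either direction and 6.55% as higher. Without ultrasound 1, 7 members were called higher, where 34.1% of tested genes were. These counts rest on the contrast that chose the members and are given as a description only.

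**Figure D1:**
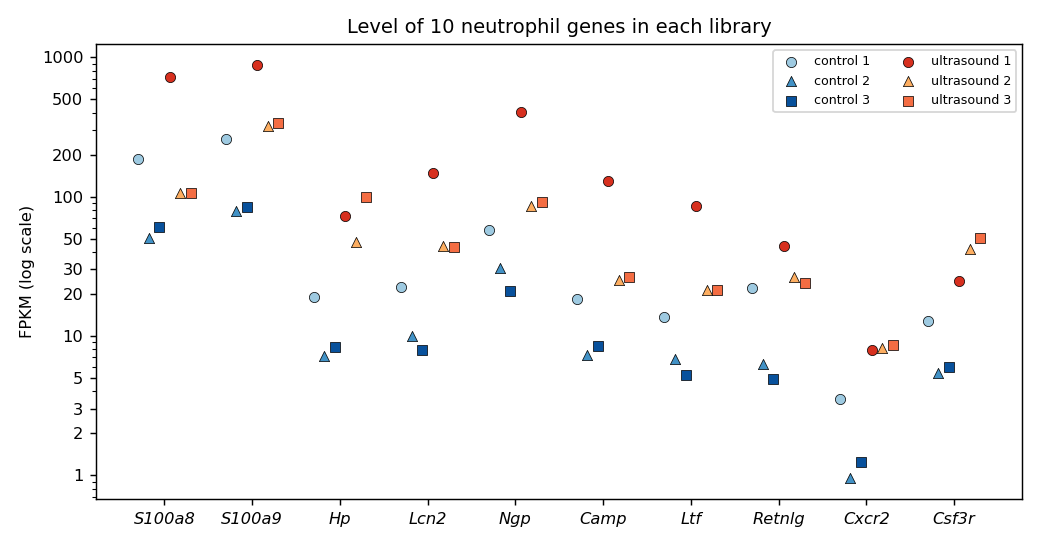
FPKM (log scale) of the 10 members, one point per library, with controls in blue and ultrasound libraries in red and orange. Control 1 is the highest control for all 10 genes, ultrasound 1 is the highest library for 7, and ultrasound 3 is the highest for Hp, Cxcr2 and Csf3r.

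S100a8 and S100a9 encode calcium-binding proteins that pair as calprotectin, which fills the neutrophil cytosol. S100a8 (NCBI Gene 20201) had 186, 50.5 and 60.1 FPKM in control 1, 2 and 3 and 725, 106 and 106 in ultrasound 1, 2 and 3. Only ultrasound 1 lay above all controls, since control 1 exceeded ultrasound 2 and ultrasound 3. The group means were 99.0 ± 75.8 and 312 ± 357 FPKM (SD, n = 3 each), a log2 change of 1.27 on the log2(FPKM + 1) scale, which fell to 0.35 without ultrasound 1. S100a9 (NCBI Gene 20202) had 257, 78.2 and 84.0 FPKM in the controls, against 886, 321 and 335 in ultrasound 1, 2 and 3. It was the most abundant member per length in all 6 libraries, and its groups did not overlap. Its log2 change was 1.93, from 140 ± 102 to 514 ± 322 FPKM (SD, n = 3 each).

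The partners did not keep a constant ratio. S100a9 over S100a8, as a ratio of FPKM values, was 1.38, 1.55 and 1.40 in the controls and 1.22 in ultrasound 1. It was 3.03 in ultrasound 2 and 3.16 in ultrasound 3. The pair therefore stood at similar proportions in 4 libraries and apart in ultrasound 2 and ultrasound 3, where S100a8 lay at 1.07 times the control mean in both and S100a9 at 2.29 and 2.40 times.

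Ngp, Camp, Ltf and Lcn2, members that encode secondary granule proteins, were several times higher in ultrasound 1 than in any other library. Ngp (NCBI Gene 18054), a granule protein related to cathelicidins, had 57.3, 30.8 and 21.1 FPKM in the controls, against 405, 85 and 92.2 in ultrasound 1, 2 and 3. Camp (NCBI Gene 12796), the cathelicidin antimicrobial peptide, had 18.5, 7.34 and 8.47 FPKM against 129, 25.4 and 26.6. In both genes the groups did not overlap, and ultrasound 2 and ultrasound 3 were close to each other. Ltf (NCBI Gene 17002), the iron-binding lactoferrin, had 13.7, 6.80 and 5.22 FPKM in the controls, against 86.2, 21.5 and 21.3 in ultrasound 1, 2 and 3. Lcn2 (NCBI Gene 16819), which binds bacterial siderophores, had 22.5, 10.01 and 7.91 FPKM against 148, 44.0 and 43.6. These 4 genes reached 10.04 to 11.2 times the control mean in ultrasound 1. In ultrasound 2 and ultrasound 3 they lay between 2.22 and 3.27 times that mean.

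Ngp, Camp and Ltf stayed near one proportion. Ngp over Ltf ranged from 3.96 to 4.69 across the 6 libraries and Ngp over Camp from 2.5 to 4.2. The ultrasound libraries lay inside the control range for Ngp over Camp. For Ngp over Ltf the controls ran from 4.05 to 4.54, with ultrasound 1 above and ultrasound 2 below them. Ngp over Lcn2 was 2.55 to 3.08 in the controls and 2.74 in ultrasound 1, but 1.93 and 2.12 in ultrasound 2 and ultrasound 3. Ngp over Csf3r, a granule gene over a receptor, spread further: it was 3.55 to 5.72 in the controls, 16.3 in ultrasound 1, 2.01 in ultrasound 2 and 1.82 in ultrasound 3.

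**Figure D2:**
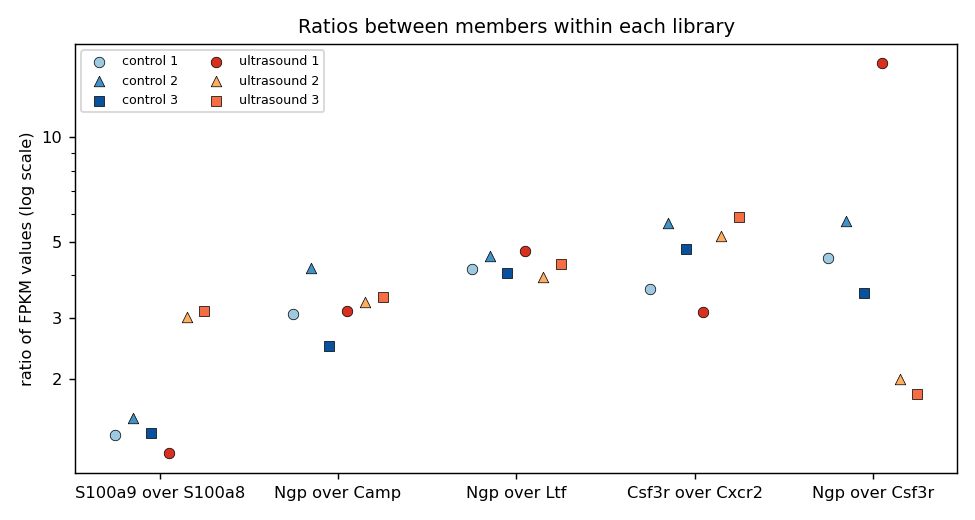
Ratios of FPKM values (log scale) between pairs of members within each library, one point per library. Ngp over Ltf stays between 3.96 and 4.69 in all 6 libraries, S100a9 over S100a8 sets ultrasound 2 and 3 apart at 3.03 and 3.16, and Ngp over Csf3r puts ultrasound 1 highest at 16.3.

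The other secreted members differed from this pattern. Hp (NCBI Gene 15439), haptoglobin, which binds free hemoglobin and is stored in neutrophil granules, had 18.9, 7.13 and 8.39 FPKM in the controls, against 73.0, 47.6 and 98.7 in ultrasound 1, 2 and 3. Its highest value was in ultrasound 3, and it had the largest log2 change of the 10, 2.63, from 11.5 ± 6.45 to 73.1 ± 25.6 FPKM (SD, n = 3 each). Retnlg (NCBI Gene 245195), a resistin-like secreted protein, had 21.9, 6.25 and 4.94 FPKM in the controls, against 44.2, 26.5 and 24.0 in ultrasound 1, 2 and 3. Its groups were separated by little, control 1 lying just under ultrasound 3. Retnlg had the smallest ratio of group means among the members, 2.86.

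The receptors among the members were not highest in ultrasound 1. Cxcr2 (NCBI Gene 12765), the receptor through which Cxcl1 and Cxcl2 draw neutrophils, had 3.51, 0.951 and 1.25 FPKM in the controls, against 7.90, 8.13 and 8.62 in ultrasound 1, 2 and 3. The ultrasound libraries were close to each other, at 8.22 ± 0.370 FPKM against 1.91 ± 1.40 in the controls (SD, n = 3 each). Csf3r (NCBI Gene 12986), the receptor of the granulocyte growth factor G-CSF, had 12.8, 5.39 and 5.95 FPKM in the controls, against 24.8, 42.3 and 50.8 in ultrasound 1, 2 and 3. For Csf3r ultrasound 1 was the lowest ultrasound library, at 3.08 times the control mean against 5.25 and 6.31 times. Set over the mean of ultrasound 2 and ultrasound 3, ultrasound 1 stood at 6.82 for S100a8, 4.96 for Camp, 4.57 for Ngp, 4.03 for Ltf, 3.38 for Lcn2, 2.70 for S100a9 and 1.75 for Retnlg. It stood at 0.997 for Hp, 0.943 for Cxcr2 and 0.532 for Csf3r, while the median over all tested genes was 0.970 and 0.920% of them exceeded 4. The surface and the secondary and tertiary granule lists described below did not split this way. Of 20 surface genes 12 were higher in ultrasound 1 than in both other ultrasound libraries, as were 41.3% of all tested genes. The tested genes of the granule list had a median of 0.875.

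The median log2 change over the members was 1.98, against 0.09 over all tested genes. It was 1.42 without ultrasound 1, with members from 0.35 (S100a8) to 2.60 (Hp), and 2.42 without control 1. The controls were themselves uneven. Control 1 was the highest control for 10 of 10 members and for 36.0% of all tested genes, at 2.21 times (Ngp) to 3.92 times (Retnlg) the mean of control 2 and control 3. Markers of other cells were also higher there, with medians over the other controls of 1.91 for monocytes, 1.65 for macrophages, 1.54 for B cells and 1.37 for erythroid cells. The T cell markers lay at 0.96 times. The part of other cells in the spread of the controls was not tested.

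Other neutrophil genes, on 6 lists of 66 genes with none of the members, were mostly higher in ultrasound libraries. Of the 65 genes listed, 52 passed the filter of FPKM of at least 1 in 3 libraries. Some of them, such as Mmp8, Asprv1 and Ly6g, reached that level in control 1 alone among the controls. They passed only through their ultrasound libraries, so the filter favoured genes high there. By limma, 28 of the 52 were higher and 1 lower at an adjusted p under 0.05, where 6.55% and 1.56% of all tested genes were. The median log2 change was 1.35. These calls were lost when control 2, control 3, ultrasound 2 or ultrasound 3 was left out: 0 of 52 passed limma, with 37, 37, 44 and 38 at an unadjusted p under 0.05. In each of those fits 0 of all 10655 tested genes passed, so the loss was not particular to these genes. Without ultrasound 1, 36 were higher and 2 lower, where 34.1% of all tested genes were called higher and 53.7% in either direction. Many of these genes are also expressed by monocytes and macrophages, so the count is not one of neutrophil transcripts alone.

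Primary granule genes were high in ultrasound 1 and near the control level in ultrasound 2. Mpo, myeloperoxidase, had 3.86, 1.73 and 1.95 FPKM in the controls, against 44.2, 2.58 and 5.85 in ultrasound 1, 2 and 3. Elane, neutrophil elastase, had 2.37, 1.71 and 1.57 FPKM against 41.5, 1.68 and 5.05. Ultrasound 2 lay within the control range for both, whereas ultrasound 1 was at 17.6 and 22.0 times the control mean. Prtn3, proteinase 3, ran from 1.26 to 3.12 FPKM in the controls and had 29.7, 1.51 and 4.32 FPKM in the ultrasound libraries, in the same order. Ctsg, cathepsin G, and Ms4a3, a membrane protein of granulocyte precursors, did not pass the filter. They had 406 and 326 reads in ultrasound 1, against 62 and 22 or fewer in every other library. None of the 3 tested genes passed limma, with adjusted p from 0.240 to 0.296, nor was any at an unadjusted p under 0.05. Ultrasound 1 stood at 8.92 (Ctsg) to 21.3 (Ms4a3) times the mean of ultrasound 2 and ultrasound 3 over the 5 genes.

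**Figure D3:**
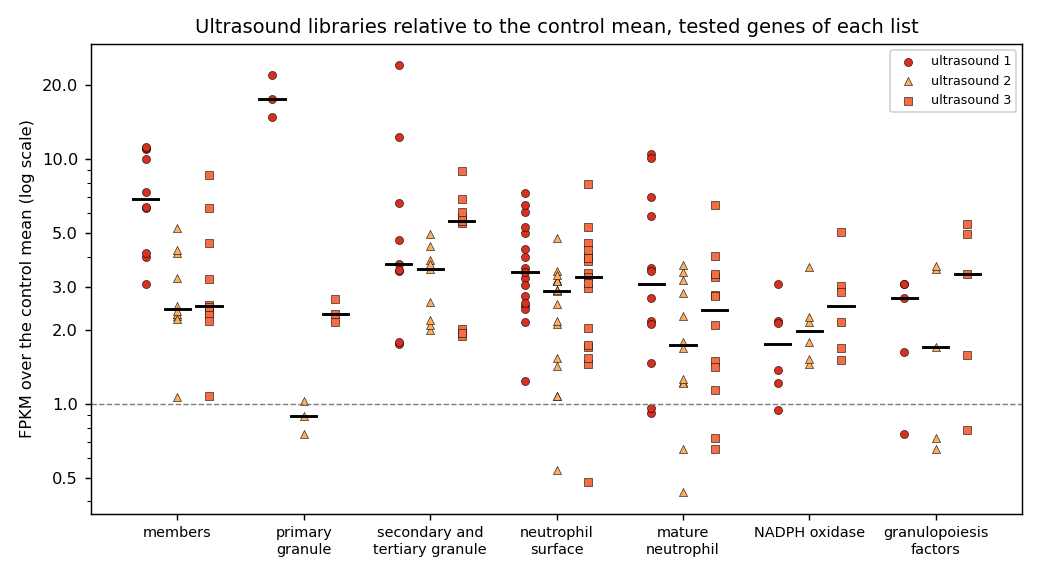
FPKM over the control mean (log scale) in ultrasound 1, 2 and 3 for the tested genes of each list, one point per gene with a bar at the median and a dashed line at 1. The 3 primary granule genes lie at 14.9 to 22.0 in ultrasound 1 and at 0.756 to 1.03 in ultrasound 2, whereas the list medians of surface genes are 3.47, 2.88 and 3.30 in ultrasound 1, 2 and 3. The medians of the secondary and tertiary granule list are 3.71, 3.54 and 5.60.

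Of the secondary and tertiary granule list, limma called 6 of 9 tested genes higher: Mmp8, Mmp9, Cd177, Pglyrp1, Slc11a1 and Lyz2. The share over all tested genes was 6.55%, and the log2 change was positive for all 9. All 9 were separated between the groups, with no ultrasound library at or under the highest control, as were 25.9% of all tested genes. Pglyrp1, a peptidoglycan-binding antimicrobial protein, varied little within groups, at 31.5 ± 0.898 FPKM in controls and 60.9 ± 4.59 in ultrasound libraries (SD, n = 3 each; limma log2 change 0.93, standard error 0.088, adjusted p 0.0297). Chil3, a chitinase-like protein of neutrophils and macrophages, had 67.9, 24.2 and 18.0 FPKM in the controls, against 887, 95.5 and 212 in ultrasound 1, 2 and 3. Its spread left it at a limma adjusted p of 0.0715. Slpi, a protease inhibitor, missed the threshold as well (limma adjusted p 0.0838). Lyz2, lysozyme, which myeloid cells of several types make, had a limma adjusted p of 0.0304 and went from 305 ± 168 to 1888 ± 723 FPKM (SD, n = 3 each), with ultrasound 3 the highest. Lyz2 has a close copy in the genome, and reads shared with it leave its value uncertain.

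Of the surface list, limma called 11 of 17 tested genes higher and 0 lower, where 6.55% and 1.56% of all tested genes were. The log2 change was positive for all 17. With median-of-ratios scaling 6 of these 17 were called, as were 2 of the 12 genes of maturing neutrophils described next. Over all 10655 tested genes the number called higher fell from 698 to 281 with that scaling. Itgam, the integrin chain of CD11b, went from 9.73 ± 4.97 to 47.7 ± 21.2 FPKM (SD, n = 3 each; limma log2 change 2.18, adjusted p 0.0316). Itgb2, its partner chain, which T cells also express, rose by 0.57 on the log2 scale (limma adjusted p 0.0463). Sirpa and Fcgr4, an inhibitory receptor and an Fc receptor of myeloid cells, rose by 1.72 and 1.88 (limma adjusted p 0.0311 and 0.0447). Among these, Itgb2 and Fcgr4 lost their call with that scaling (limma adjusted p 0.0879 and 0.0608), and Itgb2 also without control 1 (0.114). Ly6g, the surface antigen that defines mouse neutrophils, had 1.03, 0.458 and 0.484 FPKM in the controls, against 2.82, 1.68 and 1.35 in ultrasound 1, 2 and 3, from 15 to 93 reads per library. Its groups did not overlap, and its limma adjusted p was 0.0670.

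Of the 12 tested genes of maturing neutrophils, limma called 4 higher: Asprv1, Ifitm6, Hdc and Padi4. The share over all tested genes was 6.55%, and the log2 change was positive for 10 of the 12. Ifitm6, an interferon-induced membrane protein of myeloid cells, went from 10.9 ± 4.34 to 58.4 ± 16.2 FPKM (SD, n = 3 each; limma log2 change 2.33, adjusted p 0.0297). Il1b, the inflammatory cytokine, overlapped between the groups, with 14.9 to 42.8 FPKM in controls and 33.1 to 59.3 in ultrasound libraries (limma adjusted p 0.210). Wfdc17 and Ifitm1 had limma adjusted p of 0.0955 and 0.0721. Of the phagocyte oxidase genes with the highest levels, Cybb and Cyba were called higher (limma adjusted p 0.0439 and 0.04998). Ncf4 and Rac2 had limma adjusted p of 0.0699 and 0.221. With median-of-ratios scaling neither Cybb nor Cyba was called (limma adjusted p 0.0621 and 0.0947), and Cyba was not with a pseudocount of 0.1 (limma adjusted p 0.0501). In ultrasound 1, Ncf4 and Cyba stood at 0.614 and 0.876 times the mean of ultrasound 2 and ultrasound 3.

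Of 5 tested transcription factors of granulocyte development, limma called Cebpa, Cebpd and Spi1 higher and Gfi1 lower. Of all tested genes 6.55% were called higher and 1.56% lower. Spi1, which encodes PU.1, had 35.0, 15.4 and 13.9 FPKM in the controls, against 66.1, 78.4 and 116 in ultrasound 1, 2 and 3 (limma log2 change 2.05, adjusted p 0.0312). Gfi1, a repressor used by granulocyte precursors and by T cells, went from 15.4 ± 0.237 to 11.2 ± 1.03 FPKM (SD, n = 3 each; limma log2 change -0.43, adjusted p 0.0440). Without control 1, Gfi1 and Cebpa were no longer called (limma adjusted p 0.108 and 0.0594), nor was Cebpa with median-of-ratios scaling (0.0596). Cebpb did not pass (limma adjusted p 0.505). Cebpe, a factor of secondary granule genes, did not pass the filter and had 165 reads in ultrasound 1, against 53 or fewer in the other libraries.

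Of the ligand list only Cxcl2 reached the filter and was tested, and it did not pass. Csf3, which encodes G-CSF, had at most 0.073 FPKM in any library. Cxcl2 had 53.6, 17.1 and 21.6 FPKM in the controls, against 71.6, 2.49 and 8.55 in ultrasound 1, 2 and 3 (limma adjusted p 0.497). Ultrasound 1 was above every control and ultrasound 2 and ultrasound 3 below every control. Without ultrasound 1, Cxcl2 passed limma as lower (log2 change -2.29, adjusted p 0.0269). Cxcl1, which did not pass the filter, was also highest in ultrasound 1, at 5.12 FPKM against 0.149 to 1.33 in the controls. It had 0.140 and 0.0275 FPKM in ultrasound 2 and ultrasound 3. These values are near the floor, and that of ultrasound 2 was close to the lowest control. Of the cell surface partners of secreted members, Lrp1, a scavenger receptor that takes up lactoferrin, was called higher (limma log2 change 2.0, adjusted p 0.0311). Lrp1 lost its call without control 2, control 3, ultrasound 2 or ultrasound 3 (limma adjusted p 0.159, 0.144, 0.0634 and 0.108). The same held with no filter (0.0614) and with a replicate block (0.0778). Each of these fits called 0 of all genes tested in it. Tlr4 and Ager, which bind S100a8 and S100a9, had limma adjusted p of 0.0982 and 0.200. Cd163, the scavenger receptor for haptoglobin bound to hemoglobin, had a limma adjusted p of 0.0791. Tlr4 passed the filter only through its ultrasound libraries.

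Markers of other cells were read beside these genes. Of 10 monocyte markers limma called 5 higher and of 10 macrophage markers 2, where 6.55% of all tested genes were. The log2 change was positive for all 10 of each list. With median-of-ratios scaling 2 and 1 were called, where 281 of all 10655 tested genes were called higher. When control 2, control 3, ultrasound 2 or ultrasound 3 was left out, limma called 0 of either list and 0 of all tested genes. In those fits 5 to 7 monocyte and 8 to 9 macrophage markers had an unadjusted p under 0.05. The median monocyte marker stood at 2.45, 2.24 and 3.61 times the control mean in ultrasound 1, 2 and 3, and the median macrophage marker at 1.87, 1.65 and 1.87 times. The summed B cell list was at 0.630 times the control mean in ultrasound 1 and stood at 3.29 and 2.87 times in ultrasound 2 and ultrasound 3, with 0 of 6 genes past limma and 0 at an unadjusted p under 0.05. Without ultrasound 1, all 6 passed limma as higher, in a fit that called 34.1% of all tested genes higher. The summed T cell markers were at 0.847 times in ultrasound 1 and at 1.04 and 0.943 times in ultrasound 2 and ultrasound 3. No gene listed among these markers was at 0 in every library. The part of these cells in the members' values was not tested.

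**Figure D4:**
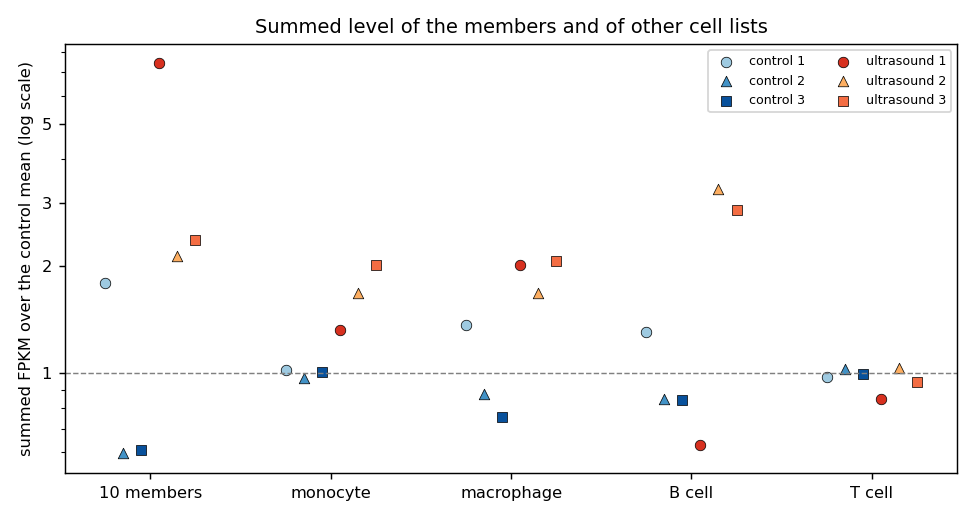
Summed FPKM over the control mean (log scale) of the members and of 4 marker lists, one point per library, with a dashed line at 1. The members stand at 7.41 in ultrasound 1, whereas the B cell list is lowest there at 0.630 and the T cell list stays between 0.847 and 1.04 in all libraries. Ly6c2, which CD8 T cells also express, is the largest part of the monocyte sum in the controls.

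The genes most like the members were found by Pearson correlation of log2(FPKM + 1) with the mean centred profile of the 10, over the 6 libraries that all values share. Among 371 other genes with a range of at least 2 on that scale, the closest were Gm14548 (0.999), Anxa1 (0.996), Asprv1 (0.993), Fcgr2b (0.992) and Bst1 (0.992). These values describe 6 points and carry no test. Anxa1, annexin A1, a phospholipid-binding protein abundant in neutrophils, had 18.2, 6.82 and 6.81 FPKM in the controls, against 72.2, 27.7 and 38.7 in ultrasound 1, 2 and 3. Of the members, S100a9 (0.994) and Lcn2 (0.993) lay closest to their common profile, and Csf3r (0.814) and S100a8 (0.861) farthest.

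Beyond the choice by symbol, the authors' annotation gives 8 of the 10 the term extracellular region, against 5.65% of all genes listed. The exceptions are Cxcr2 and Csf3r. The term neutrophil chemotaxis is held by 4 (S100a8, S100a9, Cxcr2 and Csf3r), against 0.355% of genes. In the authors' deposited table the q-values of the members ran from 2.19e-07 (Hp) to 0.354 (S100a8), with 6 of 10 under 0.05, on the contrast that chose the genes.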

How the data were processed

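Sorted splenic CD8 T cells of 3 control and 3 ultrasound libraries were compared, with groups and replicate numbers from the sample titles. The submitters' processing notes name HISAT2, HTSeq, DESeq2 and R 3.2.0 and build mm10, without roles or order. The authors' full table gives FPKM per library. It also holds signal columns deposited by the authors, the means of DESeq2 normalized counts per group, and the authors' fold change (a ratio of these means), log2 fold change, p-value and q-value. The deposited filtered table, a part of the full one, was not used.

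Whole reads per gene and library were recovered from the linear relation between FPKM and the group means. Of 64007 values under the bound used, 100% lay within 0.05 of a whole number. Molecular identifiers are not mentioned in the sources used here, so read counts are not counts of molecules. Limma 3.58.1 (trend, robust) in R 4.3.3 was fitted to log2(FPKM + 1) for the 10655 genes that reached an FPKM of 1 in 3 or more libraries. P-values are two-sided and Benjamini-Hochberg adjusted over all of these, with a threshold of 0.05. Fold changes on this scale understate the change of low genes. The fit and the recovery were tested on simulated data. Sequences and coordinates are RefSeq GRCm38.p6. Python 3.11.15, numpy 2.4.6, pandas 2.3.3 and matplotlib 3.10.9 were used.

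The members and lists were chosen with earlier results of these data known. Named are the 10 members, up to 4 genes of highest mean FPKM per list, the genes that small counts refer to and the 5 genes most like the members. Mmp8, Mmp9, Cd177, Slc11a1, Ly6g, Ms4a3, Cebpe and the genes of sums over untested genes stand outside this rule and were named after their values were seen. Alternatives covered the pseudocount, the filter, scaling, leaving out each library, a replicate block, voom fitted to the recovered reads, and the authors' own values. Not every gene of the lists is reported here by name.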

Additional observations from a re-analysis of the deposited data

Results flagged for a closer look

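Genes of the lists that did not pass the filter entered no test, and their summed reads scaled to library size (RPM) were higher in ultrasound libraries than in the highest control in the cases given here. Over Ctsg and Ms4a3 of the primary granule list, ultrasound 1 had 20.8 RPM and ultrasound 3 2.20, against at most 1.59 in controls. Over Mmp25, Olfm4, Itgb2l and Fcnb of the secondary and tertiary granule list, ultrasound 1, 2 and 3 had 31.7, 7.92 and 18.6 RPM, against at most 6.23. Over Cxcr1, Clec5a and Mrgpra2b of the surface list they had 16.0, 3.97 and 5.01 RPM, against at most 2.97. Over Stfa1, Stfa2 and Stfa3, close copies that share reads, ultrasound 1 had 6.67 RPM (235 reads), against at most 0.368, while ultrasound 2 and ultrasound 3 had 3 and 5 reads. Cebpe had 4.69, 0.773 and 1.39 RPM in ultrasound 1, 2 and 3, against at most 0.595.

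Over the ligand genes Csf3, Cxcl1, Cxcl3 and Ppbp, ultrasound 1 had 5.68 RPM, against at most 2.27 in controls. Slc22a17, a receptor for lipocalin 2, had 9.60 RPM in ultrasound 2 and 4.25 in ultrasound 3, against at most 2.92. Over 6 untested eosinophil and basophil genes, ultrasound 1, 2 and 3 had 3.98, 4.19 and 5.30 RPM, against at most 1.5.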

How the results depend on the processing

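None of the 10 members changed direction in the 12 alternatives, and in 118 of 120 results the change stayed within 1 SD of the value given. Leaving out the filter or adding a replicate block cannot alter a gene's log2 change here, so agreement in those alternatives was fixed in advance. The exceptions were Cxcr2 with a pseudocount of 0.1 (log2 change 2.27) and with voom on recovered reads (2.35). The SD was that of each gene on the log2 scale, pooled within the groups. It is wide where a library stands apart, so the rule is lenient. S100a8 stayed within it while falling from 1.27 to 0.35 without ultrasound 1. The median member change ran from 1.42 to 2.42 when one library was left out. For 28 of the other named genes tested, each kept its direction, and 87 of 336 results lost and 15 gained a limma adjusted p under 0.05. The remaining named genes were not counted here, and some of their calls changed too. Asprv1 was not called with a pseudocount of 0.1, and neither Asprv1 nor Hdc with median-of-ratios scaling.

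The 864 genes called overall became 468 with median-of-ratios scaling, which moved the median change of all genes from 0.09 to -0.02 and split the calls into 281 higher and 187 lower, against 698 and 166. The authors' deposited q-values gave 1745, 921 of them higher. Without a filter 0 genes passed limma, with 4216 at an unadjusted p under 0.05. With one library left out the count ran from 0 to 5727. Of the other neutrophil genes, 29 were called, 19 with median-of-ratios scaling, 0 without a filter (44 of 65 at an unadjusted p under 0.05) and from 0 to 38 with one library left out. The cause was not tested.

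Over all tested genes, the deviations from the group means of libraries sharing a number had correlations of -0.04, 0.05 and 0.06. No pairing by replicate number was thus seen over all genes. These values do not describe the members apart. Control 1 was the highest control for 10 of 10 members and ultrasound 1 the highest ultrasound library for 7. Pairing among the members was not tested. A limma fit with the replicate block called 0 of all tested genes, with 3249 at an unadjusted p under 0.05, against 3321 without the block. It called 0 other neutrophil genes, with 44 of 52 at an unadjusted p under 0.05, against 38 without it. The median member change was 1.98, which a block over balanced groups cannot alter.

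Depth did not limit the members, which had at least 104 reads in every library, whereas Ly6g, Ms4a3 and Mcpt8 rest on 2 to 326 reads.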

Other observations

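Eosinophil and basophil genes were measured on a list of 9. Ccr3, a chemokine receptor of eosinophils, had the highest levels, with 3.34, 2.81 and 2.28 FPKM in control 1, 2 and 3 against 4.78, 5.60 and 5.94 in ultrasound 1, 2 and 3 (limma adjusted p 0.0316). No gene of the list passed limma when control 2, control 3, ultrasound 2 or ultrasound 3 was left out, with 2 or 3 of the 3 tested at an unadjusted p under 0.05. In those fits 0 of all tested genes passed. Prg2, a protein of eosinophil granules, had 2.44, 1.09 and 1.09 FPKM against 4.74, 2.07 and 3.10, with overlapping groups (limma adjusted p 0.133). Mcpt8, a protease of basophils, had 4, 2 and 5 reads in control 1, 2 and 3 and 49, 47 and 58 in ultrasound 1, 2 and 3. It passed the filter only through its ultrasound libraries. Gata2, a transcription factor of basophils and mast cells, had 8, 10 and 5 reads in the controls and 32, 76 and 97 in the ultrasound libraries, the lowest of these in ultrasound 1. Epx, eosinophil peroxidase, overlapped between the groups, with 21, 10 and 1 reads against 40, 3 and 20. These genes were picked after their values were seen.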
